A study of Mus musculus with 3 samples.

Results

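The genes described here are the carriers of the Slc1, Slc3, Slc6, Slc7, Slc36, Slc38 and Slc43 families, most of which move amino acids across cell membranes. Members were taken by name: every gene whose probe set carries a single annotated symbol with one of these 7 prefixes. That gave 64 genes on 68 probe sets, of 22180 named genes on the array. The 64 include 3 transcripts annotated on the opposite strand of a carrier gene (Slc7a6os, Slc6a19os and Slc36a1os), which encode no amino acid carrier. They also include relatives with other cargoes, such as the monoamine carriers Slc6a2, Slc6a3 and Slc6a4 and the creatine carrier Slc6a8. The glycine carrier Slc6a9 shares its probe set with Ccdc24 and was not used here.

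RNA was measured on 3 mouse whole-transcript arrays, 1 per group. The groups were FULA 1 cells, a mouse lung adenocarcinoma line grown in DMEM with 10% fetal bovine serum, lung of FVB mice 1 week after an intraperitoneal injection of urethane, and lung of FVB mice after saline. FVB is an inbred strain and urethane a carcinogen that gives lung tumours in mice. The labels give neither the number of mice behind each lung array nor the time of the saline lung, and they name no strain for FULA 1. With 1 array per group there is no replicate spread and no test, so every statement below compares these arrays, not the conditions.

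Cells take up amino acids through carriers of a few kinds. Sodium-coupled carriers such as those of the Slc38 family accumulate neutral amino acids, and exchangers built from a heavy chain (Slc3) and a light chain (Slc7) then trade them for essential amino acids. Other members work at the lysosome, where amino acid levels are read by the mTORC1 kinase complex. In lung, carriers on the apical face of the epithelium are known to clear amino acids from the lining fluid.

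Values are given as the percentile rank of a gene among all probe sets of its own array, which no monotone scaling changes, and as log2 values after quantile normalization of the 3 arrays. Normalization was needed because the deposited columns had different scales, with medians of 4.96 on FULA 1, 1.22 on urethane lung and 0.08 on saline lung. It is not known here which arrays the authors normalized together, and a step applied to FULA 1 alone cannot be told apart from its difference to the lungs. The background mark was the 95th percentile of 1105 olfactory receptor genes, since these are silent in most tissues. It lay at percentile rank 46.5 on FULA 1, 59.2 on urethane lung and 59.6 on saline lung, or 1.96, 2.44 and 2.46 in normalized values. A difference counted as called at 2-fold or more (1 on the log2 scale), with any value below the mark held at the mark. Such a difference is a bound and is written "at least". Because the FULA 1 mark is the lowest of the 3, a difference between FULA 1 and a lung among dim genes includes the gap between the marks. Both lungs had their defining markers: Sftpc, of alveolar type II cells, and Scgb1a1, of club cells, ranked at 99.8 and 99.9 on each. FULA 1 ranked at 99.7 for the epithelial keratin Krt8, 53.5 for Sftpc and 20.3 for Scgb1a1.

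Of the 64 members, 43 lay at or above the mark on at least 1 array and 18 on all 3. On FULA 1 the number was 32, on urethane lung 27 and on saline lung 33. Of all 22180 genes, 12913 lay at or above the mark on FULA 1, 10838 on urethane lung and 10985 on saline lung. The remaining 21 were below the mark everywhere and are given no size. They were the opposite-strand entries Slc36a1os and Slc6a19os, the heavy chain Slc3a1, and Slc7a3, Slc7a9, Slc7a12, Slc7a13, Slc7a15, Slc36a3, Slc38a5, Slc38a8, Slc38a11, Slc43a1, Slc6a2, Slc6a4, Slc6a12, Slc6a13, Slc6a15, Slc6a16, Slc6a18 and Slc6a21. Several of these are known from kidney, gut or brain.

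Among members above the mark on FULA 1 but on neither lung were 9 genes: Slc7a1, Slc7a2, Slc7a11, Slc38a3, Slc38a6, Slc38a9, Slc38a10, Slc6a19 and Slc1a2. Above it on both lungs but not on FULA 1 were 8: Slc1a1, Slc6a5, Slc6a14, Slc6a17, Slc6a20b, Slc7a10, Slc7a14 and Slc38a4. Slc1a6, Slc6a7 and Slc6a11 passed it on saline lung alone, and 0 members on urethane lung alone. The other 5 passed it on FULA 1 and 1 lung, Slc7a6 with the urethane lung and Slc38a7, Slc1a3, Slc1a7 and Slc36a2 with the saline lung. Because the FULA 1 mark was the lowest, passing the mark on FULA 1 alone need not mean a higher value there. Slc1a2 was at 2.06 on FULA 1, 2.32 on urethane lung and 2.36 on saline lung, and Slc7a2 at 2.21, 2.24 and 2.32. The matching splits over all genes were not counted.

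**Figure D1:**
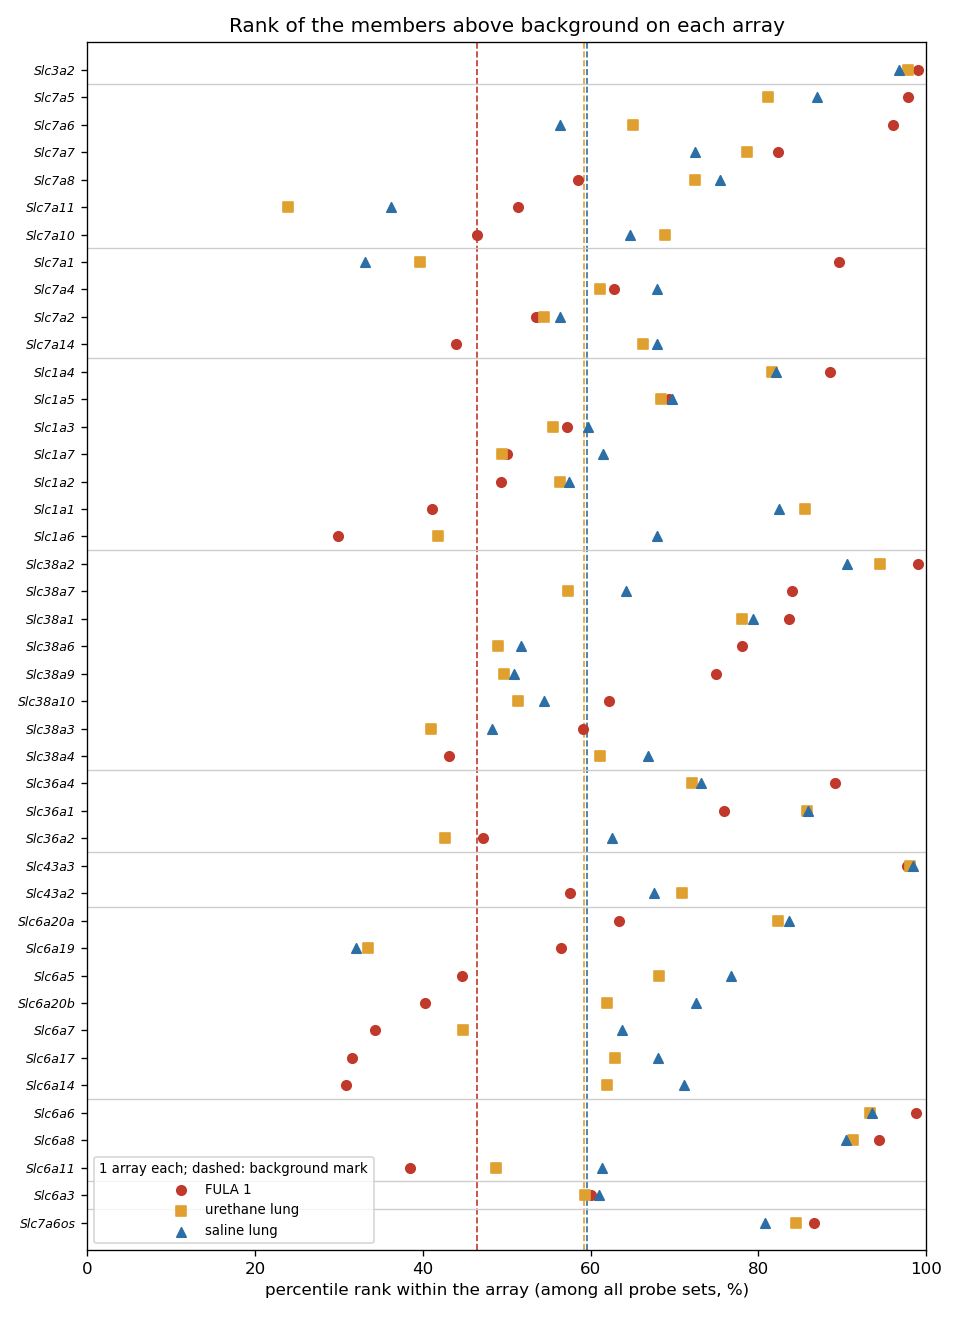
Percentile rank among all probe sets of the same array (x axis, %) of the 43 members at or above the background mark on at least 1 array, grouped by kind of carrier; circles are FULA 1, squares urethane lung and triangles saline lung, 1 array each, and dashed lines are the marks at 46.5, 59.2 and 59.6. Slc7a1 stands at 89.6 on FULA 1 and below the marks on both lungs, and Slc1a1 stands above 80 on both lungs and at 41.1 on FULA 1.

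FULA 1 was called higher than both lungs in some carriers of essential, cationic and small neutral amino acids and in the taurine carrier Slc6a6. Other carriers of such amino acids were not called, and Slc7a8, Slc7a10 and Slc38a4 were lower in FULA 1 without a call. Slc1a1 and Slc6a20a were called lower than both lungs, and other Slc6 carriers lower than saline lung alone. The same 9 members were at least 2-fold higher against the saline lung and against the urethane lung: Slc7a6, Slc38a2, Slc7a5, Slc6a6, Slc7a1, Slc3a2, Slc36a4, Slc38a7 and Slc38a6. Lower calls numbered 5 against the saline lung (Slc1a1, Slc6a5, Slc6a20a, Slc6a20b and Slc6a14) and 2 against the urethane lung (Slc1a1 and Slc6a20a). Both comparisons use the same FULA 1 array. The split of higher and lower calls depends on the scaling: beside 9 and 5 against saline lung it was 15 and 2 after each array was centred on one median, 11 and 14 with the FULA 1 quantiles as target, and 43 and 0 with the values as deposited. The share of all genes moved with it, at 10.8% higher and 11.2% lower, then 30.3% and 4.58%, 14.2% and 16.8%, and 64.9% and 0.0857%. Against urethane lung the members' split was 9 and 2, then 16 and 1, 9 and 11, and 40 and 0. The shares of all genes were 10.4% and 9.73%, then 30.6% and 4.06% after centring, and 63.5% and 0.0947% as deposited. With the FULA 1 quantiles as target, 15.1% of all genes were lower than urethane lung. The share of all genes higher there was close to, and just below, that of the members, 9 of 64. Centring put 6 further members past 2-fold against both lungs, namely Slc1a4, Slc38a1, Slc38a9, Slc6a8, Slc7a7 and the opposite-strand Slc7a6os, and Slc43a3 (1.15) against urethane lung.

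These counts are read against the whole array. The 9 higher members are 14.1% of 64, where 10.8% of all genes were called higher than saline lung and 10.4% higher than urethane lung. The lower members are 7.81% against saline lung, where 11.2% of all genes were called, and 3.12% against urethane lung, where 9.73% were. Of the 43 members above the mark on at least 1 of the arrays compared, 20.9% were higher and 11.6% lower against saline lung, where 16.6% and 17.1% of such genes were. Against urethane lung the shares were 22.5% and 5.0% of 40 members, where 16.1% and 15.2% of such genes were called. With the average quantiles used here, the share of higher calls thus lay somewhat above that of the whole array. The share of lower calls lay below it, most so against urethane lung. Neither held under every scaling. After centring, 15 and 16 of 64 members were higher than saline and urethane lung, a smaller share than the 30.3% and 30.6% of all genes. With the FULA 1 quantiles as target, 14 and 11 of 64 were lower, a larger share than the 16.8% and 15.1% of all genes. By that target the 9 of 64 members higher than urethane lung were a share close to that of all genes. At 4-fold, again with the average quantiles, 5 members were higher against each lung: Slc7a6, Slc38a2, Slc7a5, Slc6a6 and Slc7a1. They are 7.81% of 64, where 2.68% and 2.43% of all genes were higher than saline and urethane lung. The 1 lower member at 4-fold was Slc1a1, where 3.01% and 2.75% of all genes were lower. Some of these members fell under 4-fold against saline lung in other settings. Slc6a6 was at 1.86 with the FULA 1 quantiles as target, and Slc1a1 at -1.52 after centring. Slc7a1 was at 1.38 with the mark at the 99th percentile of the olfactory receptors. The shares at 4-fold were not counted in those settings. With 1 array per group none of these differences in share was tested. The median difference of the 64 members was 0.00 in each comparison with values held at the mark, as was that of all genes. Taken over the normalized values with nothing held, it was -0.12 against saline lung and 0.06 against urethane lung, beside -0.11 and -0.08 for all genes.

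**Figure D2:**
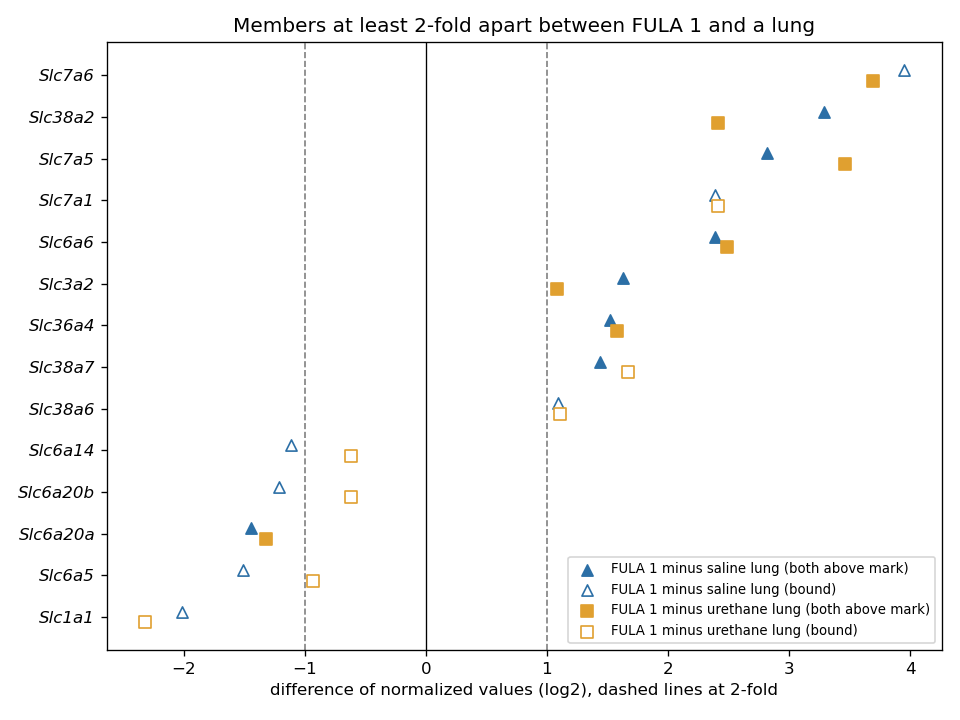
Difference of normalized values (x axis, log2) for the 14 members at least 2-fold apart between FULA 1 and a lung, with triangles for FULA 1 minus saline lung and squares for FULA 1 minus urethane lung; open symbols are bounds in which the lower value was held at the background mark. The 9 higher members pass the dashed 2-fold line against both lungs, from 1.08 for Slc3a2 to 3.95 for Slc7a6, and of the 5 lower members Slc1a1 and Slc6a20a pass it against both.

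The heavy chain Slc3a2 (CD98hc), which brings the light chains to the cell surface, was abundant on all arrays and higher in FULA 1. Its normalized value was 8.32 on FULA 1, 7.24 on urethane lung (rank 97.8) and 6.69 on saline lung (rank 96.8). The difference was 1.63 against saline lung (3.09-fold) and 1.08 against urethane lung (2.11-fold), the closest of the 9 to the 2-fold line against that lung. With the FULA 1 quantiles as target that second difference was 0.69, under the line.

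Among the light chains, Slc7a5 and Slc7a6 were far higher in FULA 1. Slc7a5 (LAT1), the exchanger for leucine and other large neutral amino acids, had normalized values of 7.29 on FULA 1, 3.82 on urethane lung and 4.47 on saline lung. FULA 1 was higher by 2.82 than saline lung (7.07-fold) and by 3.46 than urethane lung.

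Slc7a6 (y+LAT2), which exchanges cationic for neutral amino acids, showed the largest difference of any member against either lung. It ranked at 96.1 on FULA 1, 65.0 on urethane lung and 56.3 on saline lung, the last below the mark. Its difference was at least 3.95 against saline lung (at least 15.4-fold) and 3.69 against urethane lung (12.9-fold). The opposite-strand entry Slc7a6os, beside it in the genome, differed by 0.65 and 0.27 against saline and urethane lung (2.24 and 1.80 after each array was centred on one median).

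Other light chains differed less. Slc7a7 (y+LAT1), the relative of Slc7a6 known in macrophages and in absorptive epithelium, was at 3.96 on FULA 1, 3.61 on urethane lung and 3.15 on saline lung, or higher by 0.81 and 0.35 in FULA 1 than saline and urethane lung (2.22 and 1.73 after centring). Slc7a8 (LAT2), which shares much of its cargo with Slc7a5, went the other way, at 2.41 on FULA 1, 3.15 on urethane lung and 3.36 on saline lung. Its difference of -0.95 against saline lung fell just short of a call, and against urethane lung it was -0.74. Against saline lung it was -0.23 after centring, and 0.00 with the mark at the 99th percentile of the olfactory receptors. Slc7a10 (Asc-1), a carrier of small neutral amino acids, was lower in FULA 1 by at least 0.75 than saline lung and at least 0.97 than urethane lung.

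Slc7a11 (xCT), which takes up cystine for glutathione synthesis in exchange for glutamate, gave different answers on its 2 probe sets. Probe set 17405082 had a normalized value of 4.52 on FULA 1 (rank 87.4), 1.45 on urethane lung (rank 26.7) and 1.99 on saline lung (rank 47.3). By that probe set FULA 1 was higher by at least 2.05 than saline lung and at least 2.07 than urethane lung. Probe set 17397421 lay below the mark on all 3 arrays, at ranks 15.4, 21.1 and 25.2. The gene's mean of both differed by at least 0.35 and 0.37, and so Slc7a11 is not among the 9 called members. Which part of the gene each probe set reads was not known here.

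The promoter of Slc7a11 is known for a pair of elements bound by ATF4, the transcription factor of the amino acid response. It is shown with 2 other promoters, those of the called members with the largest differences against saline lung, for which a searched motif lay upstream. Sequences are from RefSeq, build GRCm38.p6, in the direction of the gene, the 250 bases before the annotated start site, and 47 of the 64 members had a promoter entry. Capitals in Slc7a11 mark matches to TGATGNAA, the core of the C/EBP-ATF response element, and capitals in the other promoters mark matches to TGACNNNGC, the core of the antioxidant response element.
Slc7a11, chr3:50443614-50443863, minus strand: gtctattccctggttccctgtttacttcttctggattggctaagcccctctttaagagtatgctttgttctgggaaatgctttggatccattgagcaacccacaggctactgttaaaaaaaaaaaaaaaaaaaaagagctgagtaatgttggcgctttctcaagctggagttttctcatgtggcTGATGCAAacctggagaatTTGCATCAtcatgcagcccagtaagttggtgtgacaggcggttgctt
Slc7a6, chr8:106168671-106168920, plus strand: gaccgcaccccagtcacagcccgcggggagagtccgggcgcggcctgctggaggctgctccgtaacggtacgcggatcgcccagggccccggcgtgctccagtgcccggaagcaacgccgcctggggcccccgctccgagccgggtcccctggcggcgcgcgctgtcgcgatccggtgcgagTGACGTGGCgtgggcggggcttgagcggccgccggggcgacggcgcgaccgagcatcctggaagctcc
Slc38a2, chr15:96699729-96699978, minus strand: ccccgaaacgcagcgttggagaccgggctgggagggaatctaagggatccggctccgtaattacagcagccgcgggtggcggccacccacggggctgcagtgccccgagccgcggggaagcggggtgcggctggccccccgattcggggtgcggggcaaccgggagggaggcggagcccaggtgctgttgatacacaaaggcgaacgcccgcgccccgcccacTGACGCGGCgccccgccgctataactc

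The Slc7a11 matches begin at -66 and -47 from the start site, on opposite strands. Searched on both strands over 300 bases, TGATGNAA was present in 3.97% of 32851 promoter windows, and among members in Slc7a11, Slc7a7, Slc1a4 and Slc6a21. TGACNNNGC was present in 12.4% of windows, and in 9 member genes, of which Slc7a6, Slc7a1 and Slc38a2 were higher in FULA 1. The E-box CACGTG, a site of MYC and related factors, was present in 7.15% of windows and in 9 member genes, of which Slc38a7 was higher in FULA 1. The E-box and TGACNNNGC matches overlap in Slc36a1. A match is a run of letters, and binding was not measured.

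The cationic carriers, which bring in arginine and lysine, differed among themselves. Slc7a1 (CAT1), the widespread arginine carrier of dividing cells, ranked at 89.6 on FULA 1, 39.6 on urethane lung and 33.1 on saline lung, so that both lungs were below the mark. With the mark in place of the lung values, FULA 1 was higher by at least 2.39 than saline lung (5.26-fold) and at least 2.41 than urethane lung (5.33-fold). Slc7a2 (CAT2), known as the inducible arginine carrier of macrophages and liver, ranked between 53.5 and 56.4 on all 3 arrays. Slc7a4 ranked at 62.8 on FULA 1, 61.1 on urethane lung and 67.9 on saline lung, and Slc7a14, a lysosomal relative, was lower in FULA 1 by at least 0.92 than saline lung and at least 0.83 than urethane lung.

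Of the 11 Slc38 members, 8 passed the mark and 3 were called against each lung, all higher in FULA 1. Of all genes, 10.8% were higher than saline lung and 10.4% higher than urethane lung. With so few members the difference in share was not tested. Slc38a2 (SNAT2), the carrier of alanine, serine and glutamine that cells raise when amino acids run short, was at 8.32 on FULA 1, 5.91 on urethane lung and 5.02 on saline lung. FULA 1 was higher by 3.29 than saline lung (9.80-fold) and by 2.41 than urethane lung (5.32-fold). Slc38a1 (SNAT1), its close relative in sequence and cargo, was at 4.08 on FULA 1, 3.56 on urethane lung and 3.68 on saline lung, a difference of 0.39 and 0.52 against saline and urethane lung (1.95 and 1.94 after centring).

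Among the lysosomal and less studied Slc38 members, Slc38a7 and Slc38a6 were called higher in FULA 1. Slc38a7 (SNAT7), which exports glutamine from lysosomes, ranked at 84.0 on FULA 1, 57.3 on urethane lung and 64.2 on saline lung. Its difference was 1.44 against saline lung and at least 1.67 against urethane lung. Slc38a6, a carrier of little known function in lung, ranked at 78.0 on FULA 1, 49.0 on urethane lung and 51.7 on saline lung, higher by at least 1.09 and 1.11. With the mark at the 99th percentile of the olfactory receptors, neither Slc38a7 nor Slc38a6 was called. Slc38a9, the lysosomal arginine sensor that signals to mTORC1, ranked at 74.9, 49.7 and 50.9 in the same order, and its bounds of 0.86 and 0.88 against saline and urethane lung fell short of a call (1.83 and 1.79 after centring).

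Slc38a10 ranked at 62.2 on FULA 1, 51.3 on urethane lung and 54.4 on saline lung, and its 2 probe sets stood far apart in level. Slc38a3 (SNAT3), a glutamine carrier of liver and kidney, was above the mark on FULA 1 alone (rank 59.1) and is given no size. Slc38a4 (SNAT4), known from liver and placenta, was the one Slc38 member above the mark on both lungs and not on FULA 1, where it was lower by at least 0.88 than saline lung and at least 0.58 than urethane lung.

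In the proton-coupled Slc36 family only Slc36a4 was called. Slc36a4 (PAT4) was at 5.28 on FULA 1, 3.70 on urethane lung and 3.77 on saline lung, a difference of 1.52 (2.86-fold) and 1.58 (2.99-fold) against saline and urethane lung. Its 2 probe sets gave like sizes, 1.39 (a bound) and 1.41 against saline lung. The first lay below the mark on both lungs, at 2.24 on saline lung and 2.17 on urethane lung. Those values entered the gene's mean without being held at the mark, so the gene's sizes are larger than those of either probe set. Slc36a1 (PAT1), a lysosomal carrier, was at 3.40 on FULA 1 and 4.32 on each lung, lower in FULA 1 by 0.92 against both, but higher by 0.47 and 0.39 than saline and urethane lung after each array was centred on one median. Slc36a2 (PAT2), known from kidney and muscle, lay close to the mark wherever it passed it.

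**Figure D3:**
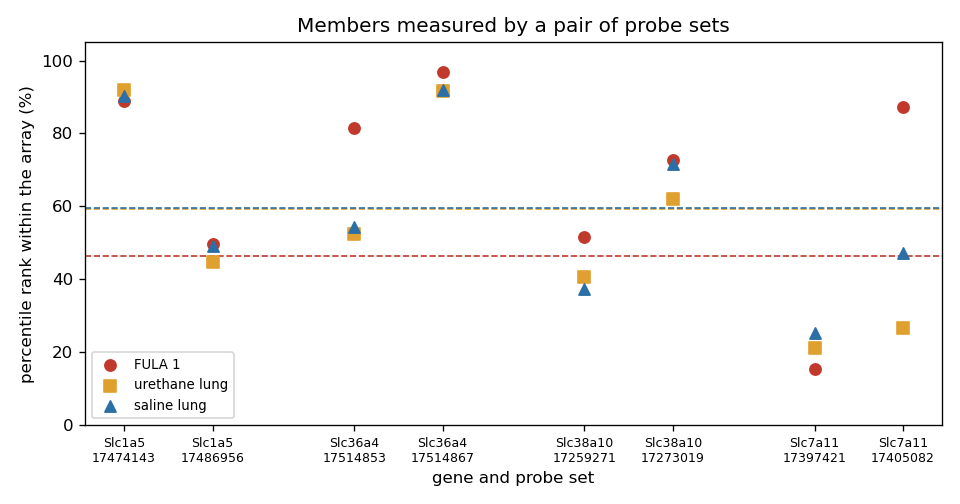
Percentile rank (y axis, %) of each probe set of the 4 members measured by a pair of probe sets, for FULA 1 (circles), urethane lung (squares) and saline lung (triangles), with the background marks dashed. Both Slc36a4 probe sets are highest on FULA 1, while only 17405082 of the Slc7a11 pair is, at 87.4 against 15.4 for its partner.

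In the Slc1 family the glutamate carrier Slc1a1 was called lower in FULA 1, and the neutral carriers were not called. Slc1a1 (EAAC1), which takes up glutamate, aspartate and cysteine, ranked at 41.1 on FULA 1, 85.6 on urethane lung and 82.5 on saline lung. With the mark as its FULA 1 value it was lower by at least 4.03-fold than saline lung and at least 5.00-fold than urethane lung (-2.01 and -2.32, log2), the largest differences in that direction among the members. The glial glutamate carriers Slc1a2 and Slc1a3 and the retinal Slc1a7 lay near the mark on every array, and Slc1a6, of Purkinje cells, passed it on saline lung alone.

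Slc1a4 (ASCT1), a carrier of alanine, serine and cysteine, was at 4.69 on FULA 1, 3.87 on urethane lung and 3.93 on saline lung, higher by 0.77 and 0.82 against saline and urethane lung (2.40 and 2.33 after centring). Slc1a5 (ASCT2), a glutamine exchanger often named beside Slc7a5 in tumour cells, had probe sets of unlike level. Its brighter probe set, 17474143, was at 4.74 on FULA 1, 5.27 on urethane lung and 4.97 on saline lung, a difference of -0.23 against saline lung and -0.53 against urethane lung. The other probe set ranked between 44.8 and 49.6 on the 3 arrays, and the mean of both differed by -0.10 and -0.19, or by 0.70 and 0.60 after each array was centred on one median.

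In the amino acid branch of Slc6, 7 of 11 members passed the mark and those called were all lower in FULA 1. They were 4 of 11 against saline lung and 1 of 11 against urethane lung, where 11.2% and 9.73% of all genes were lower. Slc6a20a (SIT1), a proline and imino acid carrier, was measured above the mark on all arrays, at 2.63 on FULA 1, 3.95 on urethane lung and 4.07 on saline lung. It was lower in FULA 1 by 2.72-fold than saline lung (-1.44, log2) and by 2.49-fold than urethane lung (-1.32). After centring, neither difference was called, at -0.45 and -0.46. Its close paralog Slc6a20b was lower by at least 1.21 than saline lung and at least 0.62 than urethane lung. Probes may not tell such paralogs apart, so both values are uncertain.

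Slc6a14 (ATB0,+), an apical carrier of neutral and cationic amino acids known in airway epithelium, ranked at 30.8 on FULA 1, 62.0 on urethane lung and 71.1 on saline lung. It was lower in FULA 1 by at least 1.11 than saline lung and at least 0.62 than urethane lung. Slc6a5 (GlyT2), a glycine carrier of inhibitory neurons, was lower by at least 1.51 and 0.93 in the same order. The urethane lung lay just above its mark for Slc6a14 and Slc6a20b, where both held a deposited value shared by 639 probe sets, so their urethane sizes are coarse. The urethane value of Slc6a5 was shared by 559 probe sets, so its size is coarse too. When each value was taken as its excess over the mark of its own array, the differences against saline lung were -0.94 for Slc6a20a, -0.71 for Slc6a20b and -0.61 for Slc6a14, all under 2-fold, while Slc6a5 was at -1.01 and Slc1a1 at -1.51. Against urethane lung Slc6a20a was at -0.83 by that measure. With the mark at the 99th percentile of the olfactory receptors, Slc6a5, Slc6a14 and Slc6a20b were each at 0.00 against saline lung and no longer called, so that of the 5 lower calls only Slc1a1 was kept under centring, the excess measure and the higher mark alike. With the values as deposited none of the 5 was lower.

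Many markers of lung cell types were also lower in FULA 1, but not all. All 5 alveolar type II, 4 club and 5 endothelial markers measured were called lower in FULA 1 against saline lung. So were 2 of 3 ciliated, 4 of 5 fibroblast and 4 of 6 leukocyte markers. Against urethane lung only 2 of 6 leukocyte markers were. Of 5 alveolar type I markers, 3 were called lower against saline lung and 4 against urethane lung. The other way went Aqp5, higher in FULA 1 by 2.49 and 2.28 than saline and urethane lung. The summed linear level of the alveolar type II list was 23 on FULA 1, 3743 on urethane lung and 3057 on saline lung, and that of the endothelial list was 25, 640 and 755. On FULA 1, 1 of the 5 alveolar type II and 2 of the 5 endothelial markers were below the mark, so those sums are largely background. Of the simple epithelial markers 4 of 5 were called higher in FULA 1 than in saline lung, with sums of 1416, 122 and 98. Against urethane lung 3 were higher and 1 lower, which was Epcam, at -1.28 there and at -0.51 against saline lung. The part of these cell types in the carrier differences was not tested. In a whole lung, fewer cells of a type and less RNA per cell cannot be told apart.

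The remaining Slc6 members carry mostly other cargo, and the Slc43 family carries amino acids or nucleobases. Slc6a6 (TauT), the taurine carrier, was at 8.06 on FULA 1, 5.57 on urethane lung and 5.67 on saline lung, higher by 2.39 (5.25-fold) and 2.49 (5.62-fold) against saline and urethane lung. Slc6a8, the creatine carrier, was at 5.87, 5.15 and 5.00 in the order FULA 1, urethane and saline lung, a difference of 0.87 against saline lung and 0.72 against urethane lung (2.39 and 2.26 after centring). Slc43a3, now known as a nucleobase carrier, was bright everywhere, at ranks of 97.7 on FULA 1, 98.1 on urethane lung and 98.5 on saline lung. Slc43a2 (LAT4), an exporter of branched-chain amino acids, was lower in FULA 1 by 0.69 than urethane lung and by 0.50 than saline lung, the last at 0.06 after each array was centred on one median.

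Between the lungs no member was called. Of the 64 members, 0 were called higher in the urethane lung than in the saline lung, where 1.15% of all genes were (2.11% of those above the mark on at least 1 lung). Likewise 0 were called lower, where 0.428% of all genes were (0.789% of those above the mark). With 64 genes such shares give few or no calls. A difference of at least 0.5 was seen in 5 members. Slc38a2 was higher in the urethane lung by 0.88 (1.84-fold) and Slc3a2 by 0.55 (1.46-fold), which was 0.01 after each array was centred on one median. Slc7a5 was lower by 0.64 there, so the heavy chain and this light chain went opposite ways; Slc6a20b was lower by 0.59 and Slc6a5 by 0.58. Slc38a2 held a urethane value shared by 41 probe sets and Slc7a5 a saline value shared by 86. The urethane values of Slc6a20b and Slc6a5 were shared by far more, 639 and 559 probe sets, so the sizes of those genes are coarser. Slc6a6 (-0.10), Slc36a4 (-0.06), Slc1a4 (-0.05) and Slc36a1 (-0.01) had nearly the same value on both lungs. Outside the families, 5 genes of the lists described below were called higher in the urethane lung and 0 lower, and they are named after their values were seen. They were Ddit4 (1.58), Gpt2 (at least 1.36), the mitochondrial carrier Slc25a38 (1.16), Odc1 (at least 1.03) and Tsc1 (1.00, on the 2-fold line). By list they were 2 of 15 glutamine, glutamate and aspartate enzymes, 1 of 20 ATF4 genes, 1 of 25 mTORC1 genes and 1 of 18 other carriers. Among 10 branched-chain and 11 glutathione genes 0 were called. These calls stand beside 1.15% of all genes and were not checked under other scalings. Of 5 cardiac muscle markers 2 were called lower in the urethane lung, Myl7 (-1.34) and Nppa (-1.01), and the part of heart tissue in the lung differences was not tested.

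Genes that work beside the carriers were counted from lists chosen with earlier results of these data known. Their counts stand beside 10.8% of all genes higher and 11.2% lower against saline lung, and 10.4% and 9.73% against urethane lung. Most listed genes were above the mark on at least 1 array. Among all genes above the mark on at least 1 of the arrays compared, the shares were 16.6% and 17.1% against saline lung. Against urethane lung they were 16.1% and 15.2%. Values named below are against saline lung unless stated. In the ATF4 and amino acid response list, which takes in several genes of serine synthesis, 8 of 20 were called higher and 3 lower in FULA 1 against saline lung, and 8 and 4 against urethane lung. The higher ones were led by Psat1 (3.27), Vldlr (2.91) and Phgdh (2.62), and asparagine synthetase, Asns, was at 2.31. The lower ones were Atf5 (-2.10), Cebpb (-1.88) and Nupr1 (-1.60), all factors of the stress response. Atf4 itself was at 4.80 on FULA 1, 4.32 on urethane lung and 4.67 on saline lung, a difference of 0.13 and 0.47 against saline and urethane lung.

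Among enzymes of glutamine, glutamate, aspartate and arginine, 5 of 15 measured were higher than saline lung and 2 lower, and 6 were higher than urethane lung and 4 lower. Odc1, which makes putrescine from ornithine, was higher by at least 3.76, the aspartate aminotransferase Got1 by 3.06 and Aldh18a1, the first enzyme of proline synthesis, by 2.97, whereas Oat was at -1.40 and Arg1 at -1.30 or lower. Glul, glutamine synthetase, was at -0.77. Of 11 glutathione genes measured 5 were higher and 1 lower against each lung, with Chac2 (at least 1.90), Gsr (1.73) and Gss (1.59) highest, Gpx4 at -1.04 and Gclc, of the rate-limiting ligase, at 0.58.

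The machinery that reads amino acids for mTORC1 showed 4 of 25 higher and 2 lower against saline lung, near the shares of all genes, and 3 and 2 against urethane lung. Tsc1 (1.63, but 0.63 against urethane lung), Fnip1 (at least 1.56) and Rptor (1.49) were higher, and the GTPase Rragd (-1.45 or lower) and Lamtor2 (-1.19) lower. In branched-chain breakdown 2 of 10 were higher than saline lung, Dld (1.26) and Bckdk (1.02), 1 was higher than urethane lung, and 0 were lower than either. Of 18 other amino acid and peptide carriers or partners measured, 3 were higher and 1 lower against each lung. The higher ones were Slc25a13, the mitochondrial aspartate-glutamate carrier (at least 2.04), the cystine exporter Ctns (at least 1.20) and the aromatic amino acid carrier Slc16a10 (at least 1.01), and the vesicular carrier Slc32a1 was at -1.08 or lower. The one lower than urethane lung was Slc25a38 (-1.44).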

How the data were processed

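The authors deposited log2 values for 41345 probe sets on 3 arrays of biotin-labelled total RNA. Per the submitters' processing notes these came from RMA, and the design text names GeneSpring GX 12.5; background settings and build were not given in the sources used here. No further samples were in the table (0 extra columns).

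Each array was mapped onto the average quantiles of the 3 columns (ties at mean rank). By the platform annotation 23521 probe sets had 1 symbol, 1814 several and 16010 none here. Entrez identifiers matched 23328 of the first, including all 68 of the members, to RefSeq (GRCm38.p6) for current symbols. Probe sets of a gene were averaged. A bound was given only where the higher value was the one above its mark. The number of arrays limits the precision. Python 3.11.15, pandas 2.3.3 and NumPy 2.4.6 were used, and the steps were tested on simulated data.

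Members, lists, normalization and mark were chosen with earlier results of these data known. All members may be named; other lists give up to their 3 highest and 3 lowest called genes. Some listed genes, among them the erythroid markers, were not analysed here. Motifs and printed promoters were chosen after the values were seen.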

Additional observations from a re-analysis of the deposited data

How the results depend on the processing

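Fold sizes rest on the scaling. The 9 members higher in FULA 1 were called against both lungs under every scaling tried, except that Slc3a2 against urethane lung was 0.69 with the FULA 1 quantiles as target. With the mark at the 99th percentile, Slc38a6 and Slc38a7 were not called against either lung. The lower calls were less stable. Values as deposited, which carry the scale gap between arrays, gave 43 members higher than saline lung, 40 higher than urethane lung and 0 lower than either, 27 higher in urethane than in saline lung, and medians of 4.43, 3.26 and 0.71 (4.59, 3.44 and 0.58 for all genes). There Slc1a1 was at 3.37, Slc6a14 at 4.08, Slc6a20a at 4.44, Slc6a20b at 4.04 and Slc6a5 at 3.79 against saline lung, and Slc1a1 at 1.83 and Slc6a20a at 3.28 against urethane lung, the reverse of the normalized direction.

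With each array centred on one median, 15 members were higher than saline lung and 16 higher than urethane lung (30.3% and 30.6% of all genes), 2 and 1 were lower (4.58% and 4.06%), and 1 (Slc43a3) was lower in urethane than in saline lung. With the FULA 1 quantiles as target 11 and 9 were higher than saline and urethane lung. Of all genes 14.2% were higher than saline lung, and a share close to that of the members was higher than urethane lung. By the same target 14 members were lower than saline lung and 11 lower than urethane lung (16.8% and 15.1% of all genes). The mark at the 99th percentile left 2 lower than saline lung, Slc1a1 and Slc6a20a, where 8.3% of all genes were lower. Slc6a5, Slc6a14 and Slc6a20b were lost. With the mark at the 90th percentile the median against saline lung was -0.11. Without holding values at the mark 8 were lower than saline lung and 4 lower than urethane lung, where 13.2% and 11.5% of all genes were. In that setting 1 (Slc1a6) was lower in urethane than in saline lung. A 4-fold threshold left 5 higher and 1 lower against each lung, where 2.68% and 2.43% of all genes were higher than saline and urethane lung and 3.01% and 2.75% lower. The excess over each mark, an alternative chosen after seeing the data, gave 14 higher and 2 lower than saline lung (19.3% and 5.73% of all genes). Against urethane lung it gave 13 higher and 1 lower (18.6% and 5.13% of all genes). The brighter probe set per gene added Slc7a11, giving 10 higher against each lung. By that choice 11.2% and 10.8% of all genes were higher than saline and urethane lung. Leaving out the opposite-strand entries changed no count. Between the lungs the Slc3a2 difference was 0.01 with each array centred on one median, against 0.55. No paired analysis was possible because each group has 1 array. What made the scales of the arrays differ was not tested.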
